A study of Gallus gallus with 6 samples.

Results

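The 10 genes described here are markers of the intestinal crypt, chosen by name: 7 mark crypt stem cells (LGR5, OLFM4, ASCL2, SOX9, SMOC2, EPHB2 and RNF43) and 3 mark the secretory lineage (ATOH1, MUC2 and AGR2). These genes and the further gene lists below were chosen with earlier results of these data known. Counts of them beside shares of all genes are therefore no independent result. All 10 were found among the 27656 genes of the deposited table, each on 1 row and each protein-coding, with ATOH1 spelled Atoh1 there. RNA was sequenced from broiler chicken cells labelled as macrophages, sorted by flow cytometry from the ileum with KUL01, an antibody widely used to label chicken macrophages. In the LPS+LR21 group birds were given an injection of LPS (lipopolysaccharide, an outer-membrane molecule of Gram-negative bacteria that triggers inflammation) and received Lactobacillus reuteri by gavage, and in the LPS group birds were injected with LPS alone. Both groups therefore carried the LPS injection, and no uninjected birds were analysed here. Age, sex, dose and time were not given in the sources used here. Each group had 3 libraries, named by their columns LR1_2, LR3 and LR4 in LPS+LR21 and LPS1, LPS2 and LPS3 in LPS.

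In mammals the crypt base holds stem cells kept dividing by Wnt signals, and their daughters choose between an absorptive fate under Notch signalling and a secretory fate that needs ATOH1. Goblet cells, one of the secretory types, fold and store the gel-forming mucin MUC2 and release it as mucus over the epithelium. Most of the 10 are used as markers of epithelium rather than of macrophages. Several, SOX9, SMOC2 and EPHB2 among them, are known from other cell types too. The study's title names crosstalk between intestinal macrophages and stem cells as its interest. The comparison below describes how far crypt transcripts were present in the sorted cells and how they differed between the groups.

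Total counts were 31284679 to 45492503 in the LPS+LR21 libraries and 38492909 to 44786499 in the LPS libraries. A floor of 3 counts per library was 0.0659 to 0.0959 CPM (counts scaled to the total of the library) and covers counting error only. Of 19 macrophage markers 18 were in the table, with a summed level of 13439 to 30056 CPM in LPS+LR21 and 37864 to 46977 CPM in LPS, and GPNMB was the only one at 0, in LR1_2 and LR3. Of 22 general epithelial markers 17 were in the table, none at 0 in any library, with a summed level of 2394 to 8502 CPM in LPS+LR21 and 993 to 1532 CPM in LPS. The labelled cell type was thus accompanied by epithelial transcripts in all 6 libraries. LR3 had the lowest epithelial and the highest macrophage sum of the LPS+LR21 libraries, and results are given below with and without it.

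Crypt and goblet transcripts were present in both groups. LGR5, OLFM4, SOX9, MUC2 and AGR2 were higher in LR1_2 and LR4 than in every LPS library, with fitted log2 fold changes of 1.57 to 2.27 over all 6 libraries. ATOH1 was near its detection limit and highest in LPS+LR21. Of these 5 genes only OLFM4 did not overlap between the groups, since LR3 lay within the LPS range for the rest. RNF43 was also higher in LR1_2 and LR4 than in every LPS library but lowest in LR3, with a fitted log2 fold change of 0.72. ASCL2, SMOC2 and EPHB2 overlapped without that pattern, with fitted log2 fold changes of -1.05 to -0.16. None of the 10 genes (0 of 10) passed the quasi-likelihood test of edgeR, with p-values adjusted by the Benjamini-Hochberg method over all tested genes and a threshold of 0.05, where 0.974% of the 20745 tested genes were called higher and 0.0819% lower. At an unadjusted p under 0.05, 6 of the 10 were higher and 0 lower, against 7.46% and 4.60% of all tested genes; the 6 include ATOH1, and they were 3 without LR1_2 and 4 without LPS1. DESeq2, which gave an adjusted p for 8 of them, called 5 higher and 0 lower, against 8.34% and 2.82% of all genes. Without LR3, edgeR called 5 of the 10 higher and 0 lower, against 4.83% and 3.82% of all genes. LR3 was set apart for its low epithelial sum and had the lowest CPM of its group for 8 of the 10. The calls without it are therefore not independent of that choice. With library quality weights in limma-voom 5 were higher and 0 lower, against 5.11% and 4.32% of all genes, and with library totals in edgeR 1 was higher and 0 lower, against 1.45% and 0.101%. The 5 genes were LGR5, OLFM4, SOX9, MUC2 and AGR2 in each of these fits, and the 1 with library totals was OLFM4. The quality weights gave LR3 0.334, the lowest of the 6 libraries, so that fit and the one without LR3 are not separate agreement. Without any 1 of the other 5 libraries edgeR called no gene of the table, with smallest adjusted p of 0.121 to 0.225. All 10 passed the filter on low counts, ATOH1 through its LPS+LR21 counts alone.

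**Figure D1:**
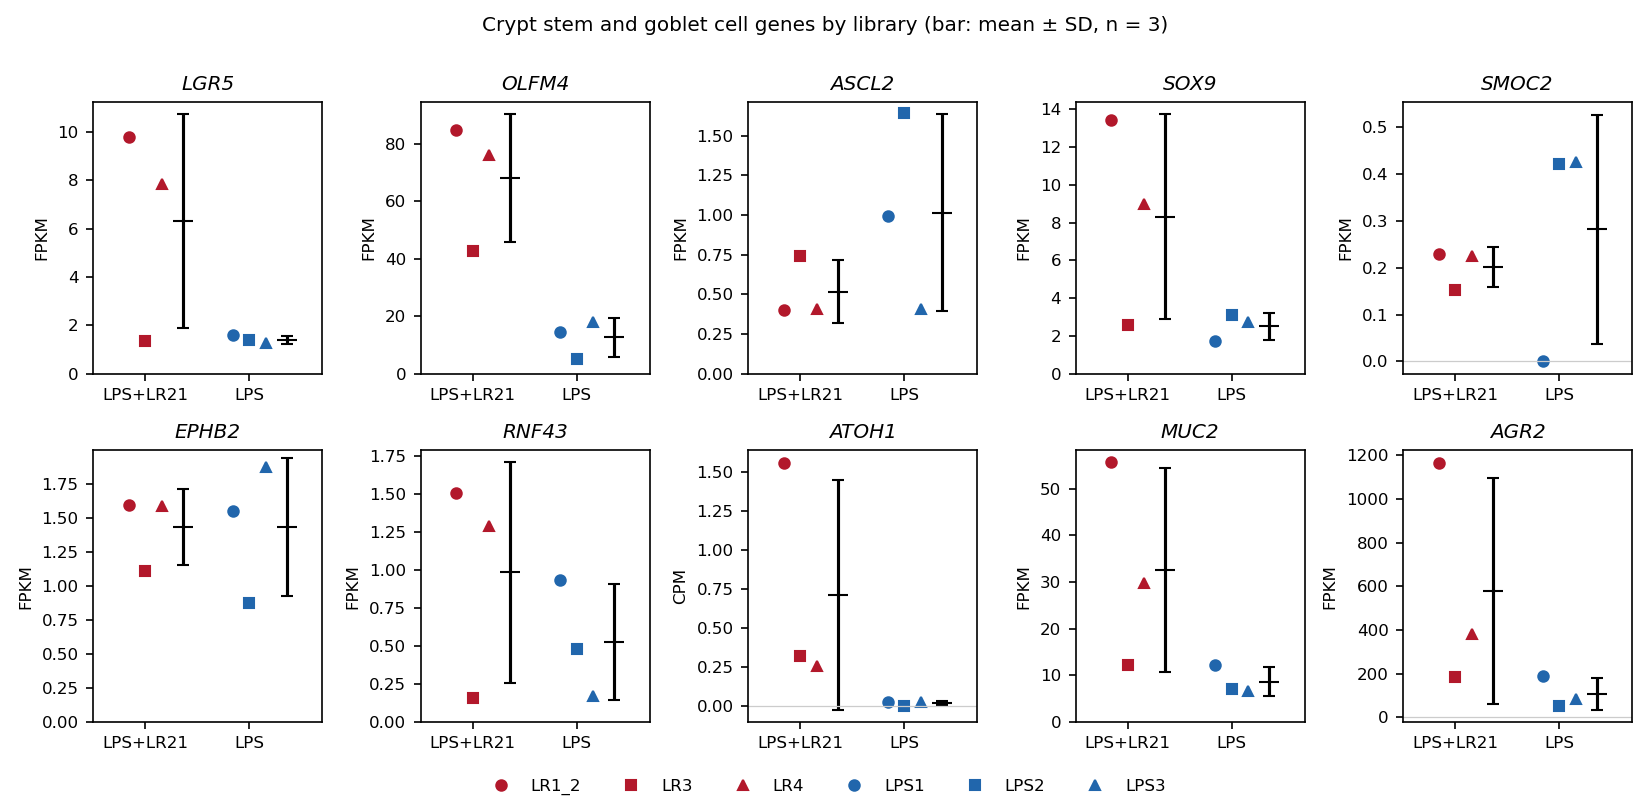
Level of each of the 10 genes in every library, in FPKM (CPM for ATOH1, both linear), LPS+LR21 in red and LPS in blue, with the mean and SD of each group of 3 in black. OLFM4 and ATOH1 were higher in all 3 LPS+LR21 libraries than in any LPS library, whereas LR3 lay among the LPS libraries for LGR5, SOX9, MUC2 and AGR2. ATOH1 had passed the filter on low counts only through LPS+LR21, which nearly fixed its separation.

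LGR5 encodes the receptor for R-spondins, which strengthen Wnt signalling, and it is the best-known marker of dividing crypt stem cells in the mouse. It lies on chromosome 1, 36359750 to 36445732, plus strand (ENSGALG00010012004; coordinates here are those of the table, whose genome build was not given in the sources used here). Its level was 9.80, 1.35 and 7.86 FPKM in LR1_2, LR3 and LR4, against 1.59, 1.38 and 1.26 FPKM in LPS1, LPS2 and LPS3. FPKM, fragments per kilobase scaled to the depth of the library, was recomputed here from the counts. LR1_2 and LR4 were far above the LPS libraries, and LR3 lay within their range. The means were 6.34 ± 4.43 FPKM in LPS+LR21 and 1.41 ± 0.169 FPKM in LPS (SD, n = 3 each). The log2 fold change was 1.99 ± 0.60 (SE) with adjusted p = 0.168 by edgeR's quasi-likelihood test, 2.57 with adjusted p = 0.00265 without LR3, and 1.43 with adjusted p = 0.654 without LR1_2.

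RNF43 encodes a membrane ubiquitin ligase that removes Wnt receptors from the surface and is itself a Wnt target, so that it acts against the signal that LGR5 strengthens. The gene lies on chromosome 19, 1050887 to 1104574, minus strand (ENSGALG00010029599). Its RNA stood at 1.51, 0.156 and 1.29 FPKM in LR1_2, LR3 and LR4, against 0.932, 0.480 and 0.171 FPKM in LPS1, LPS2 and LPS3. LR1_2 and LR4 were above every LPS library and LR3 was below all of them, so the groups overlapped. The counts behind LR3 and LPS3 were 43 and 52, against 464 in LR1_2. The log2 fold change was 0.72 ± 0.87 (SE; adjusted p = 0.884, edgeR), within the spread between replicates, and was 1.35 with adjusted p = 0.368 without LR3 and 0.17 with adjusted p = 0.9998 without LR1_2.

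OLFM4, a secreted glycoprotein abundant in crypt base cells of several mammals, separated the groups in every library. It lies on chromosome 1, 165456634 to 165482309, minus strand (ENSGALG00010002967). OLFM4 stood at 84.9, 42.7 and 76.1 FPKM in LR1_2, LR3 and LR4, against 14.5, 5.24 and 18.1 FPKM in LPS1, LPS2 and LPS3. Even LR3 was above the highest LPS library, so the groups did not overlap. Such a separation upward was seen for 12.3% of all tested genes and a downward one for 7.1%. Of the 10 genes 0 separated downward and ATOH1 alone joined OLFM4 upward, but ATOH1 passed the filter only through LPS+LR21, so that its separation was nearly fixed by the filter. The means were 67.9 ± 22.3 FPKM in LPS+LR21 and 12.6 ± 6.65 FPKM in LPS (SD, n = 3 each). Its log2 fold change of 2.26 ± 0.48 (SE) had adjusted p = 0.0640 by edgeR, the smallest of the 10, with higher values in 3 of 3 LPS+LR21 libraries. It was called with library totals in place of TMM scaling (2.43, adjusted p = 0.0472), by DESeq2 (2.30, adjusted p = 0.000290) and without LR3 (2.56, adjusted p = 0.00863), and it was 2.01 with adjusted p = 0.259 without LR1_2.

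OLFM4 and LGR5 did not keep one ratio. In FPKM, OLFM4 was 8.66, 31.6 and 9.68 times LGR5 in LR1_2, LR3 and LR4, against 9.13, 3.78 and 14.4 times in LPS1, LPS2 and LPS3. LR3 therefore stood apart from the other libraries by high OLFM4 beside an LGR5 level like that of LPS.

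Among the transcription factors of the stem list, SOX9 and ASCL2 had fitted values of opposite sign, neither past the threshold. SOX9, made in crypt base cells and in some secretory cells of mammals, lies on chromosome 18, 9420966 to 9426029, plus strand (ENSGALG00010029771). The gene had 13.4, 2.58 and 8.96 FPKM in LR1_2, LR3 and LR4, against 1.71, 3.09 and 2.73 FPKM in LPS1, LPS2 and LPS3. As for LGR5, LR1_2 and LR4 were high and LR3 lay within the LPS range. Its log2 fold change was 1.57 ± 0.53 (SE; adjusted p = 0.232, edgeR), 2.10 with adjusted p = 0.0105 without LR3, and 0.95 with adjusted p = 0.824 without LR1_2.

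ASCL2, a basic helix-loop-helix factor that keeps crypt stem cell identity in the mouse and is a Wnt target, was low throughout. It lies on chromosome 5, 13278518 to 13281731, plus strand (ENSGALG00010024569), and its interval contains a microRNA gene on the same strand. Its level was 0.398, 0.744 and 0.411 FPKM in LR1_2, LR3 and LR4, against 0.992, 1.64 and 0.405 FPKM in LPS1, LPS2 and LPS3. LR3 was the highest of its group, the reverse of LGR5 and SOX9, and the groups overlapped through LPS3. The log2 fold change was -1.05 ± 0.81 (SE; adjusted p = 0.748, edgeR), which did not pass, and its fitted value was below 0 in all 12 fits tried.

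SMOC2 and EPHB2 completed the stem list. SMOC2, a secreted calcium-binding matrix protein related to SPARC, lies on chromosome 3, 41285913 to 41420940, minus strand (ENSGALG00010006546). Expression was 0.229, 0.152 and 0.224 FPKM in LR1_2, LR3 and LR4, against 0 in LPS1, 0.422 in LPS2 and 0.425 FPKM in LPS3. These values rest on 52, 31 and 35 counts in LR1_2, LR3 and LR4 and on 0, 81 and 95 counts in LPS1, LPS2 and LPS3. LPS1 was below all 3 LPS+LR21 libraries and the other LPS libraries were above them. The log2 fold change was -0.62 ± 1.44 (SE; adjusted p = 0.952, edgeR), and its sign turned with library quality weights in limma-voom (1.62, adjusted p = 0.647).

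EPHB2, a receptor for ephrin B ligands that sorts cells along the crypt axis in the mouse, lies on chromosome 21, 5938455 to 6036735, minus strand (ENSGALG00010016847). Another protein-coding gene overlaps it on the same strand, so the counting could have split reads between them and its values are uncertain. The values were 1.60, 1.11 and 1.59 FPKM in LR1_2, LR3 and LR4, against 1.55, 0.874 and 1.87 FPKM in LPS1, LPS2 and LPS3. The LPS+LR21 values all lay inside the LPS range. The means were 1.43 ± 0.278 FPKM in LPS+LR21 and 1.43 ± 0.511 FPKM in LPS (SD, n = 3 each). The log2 fold change was -0.16 ± 0.46 (SE; adjusted p = 0.962, edgeR); the sign turned without LR3 (0.04) and without LPS3 (0.11), and with library totals the value was near 0.

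ATOH1, the basic helix-loop-helix factor that commits crypt daughters to the secretory fate in the mouse, was close to the detection limit. It lies on chromosome 4, 36619092 to 36619916, plus strand (ENSGALG00010008510). Its transcript reached 71, 13 and 8 counts in LR1_2, LR3 and LR4, against 1, 0 and 1 counts in LPS1, LPS2 and LPS3. These counts corresponded to 1.56, 0.319 and 0.256 CPM in LR1_2, LR3 and LR4, and all 3 LPS libraries were below the floor of 3 counts. The groups did not overlap, but ATOH1 passed the filter on low counts only through LPS+LR21, which nearly fixed that separation. Of the 92 LPS+LR21 counts 71 came from LR1_2. Pooled over libraries, 92 counts against 2 gave a rate 48.5 times as high, with an exact 95% interval (Clopper-Pearson) of 13.0 to 406. The interval covers counting error only and not the spread between libraries, so it is no test of a difference between the groups. The fitted log2 fold change was 5.13 ± 1.80 (SE; adjusted p = 0.251, edgeR) and did not pass, and it was 3.81 without LR1_2. No FPKM is given, since the LPS counts are too few to imply a gene length.

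MUC2, the gel-forming mucin of goblet cells, lies on chromosome 5, 14527189 to 14602340, minus strand (ENSGALG00010023823). The level was 55.7, 12.1 and 29.9 FPKM in LR1_2, LR3 and LR4, against 12.2, 7.09 and 6.66 FPKM in LPS1, LPS2 and LPS3. LR1_2 and LR4 were above all LPS libraries, and LR3 lay just below LPS1, the highest of them. The means were 32.6 ± 21.9 FPKM in LPS+LR21 and 8.65 ± 3.09 FPKM in LPS (SD, n = 3 each). The log2 fold change was 1.76 ± 0.52 (SE; adjusted p = 0.164, edgeR), 2.27 with adjusted p = 0.00729 without LR3, and 1.06 with adjusted p = 0.6003 without LR1_2. With 3981 to 36994 counts in every library, counting error was small beside the spread between libraries.

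AGR2, a protein disulfide isomerase of the endoplasmic reticulum that goblet cells of the mouse need to fold MUC2, was the most abundant of the 9 genes with an FPKM in all 6 libraries. It lies on chromosome 2, 28469539 to 28473632, minus strand (ENSGALG00010004377). It had 1166, 187 and 383 FPKM in LR1_2, LR3 and LR4, against 191, 51.7 and 83.5 FPKM in LPS1, LPS2 and LPS3. LR1_2 stood well above the rest, and LR3 was again just below LPS1. The means were 578.6 ± 518 FPKM in LPS+LR21 and 108.6 ± 72.8 FPKM in LPS (SD, n = 3 each). Its log2 fold change was 2.27 ± 0.71 (SE; adjusted p = 0.190, edgeR), 2.83 with adjusted p = 0.0182 without LR3, and 1.18 with adjusted p = 0.703 without LR1_2. In FPKM, AGR2 was 20.9, 15.4 and 12.8 times MUC2 in LR1_2, LR3 and LR4, against 15.6, 7.30 and 12.5 times in LPS1, LPS2 and LPS3, so the library with most AGR2 also had most AGR2 per MUC2.

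**Figure D2:**
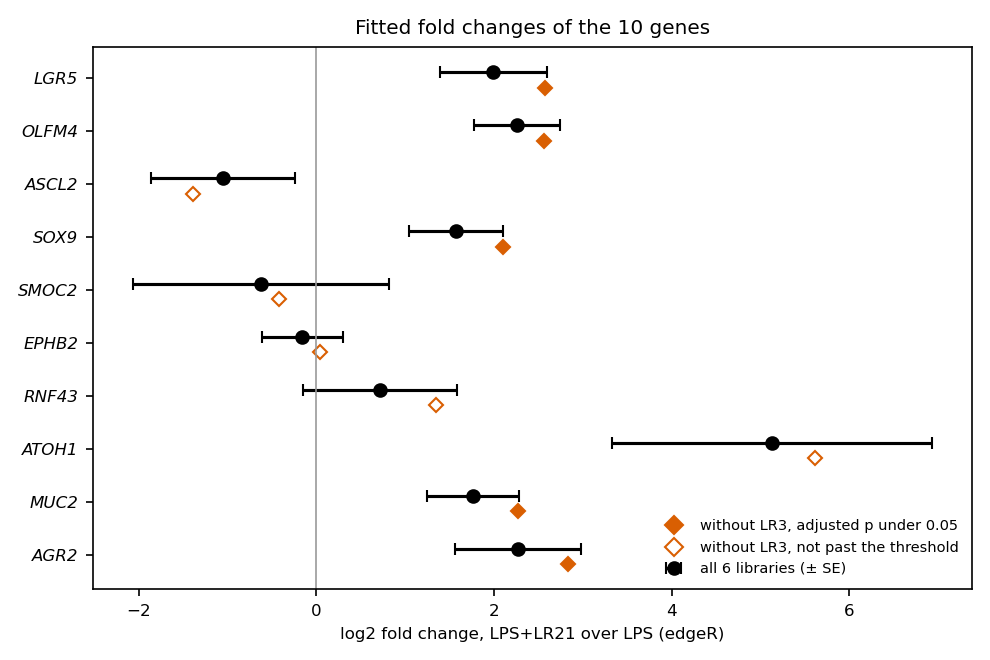
Fitted log2 fold change of each gene, LPS+LR21 over LPS, from edgeR with all 6 libraries (black, ± SE) and without LR3 (orange, filled where adjusted p is under 0.05). LGR5, OLFM4, SOX9, MUC2 and AGR2 passed without LR3, and none passed with all libraries. None passed either when LR1_2, LR4, LPS1, LPS2 or LPS3 was left out instead. LR3 was set apart for its low epithelial sum.

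Ranked by FPKM within a library, AGR2 was highest in all 6, with ATOH1 left out. OLFM4 and MUC2 came next and SOX9 after them in every library; OLFM4 was above MUC2 in every library but LPS2, where MUC2 had 7.09 and OLFM4 5.24 FPKM. LGR5 and EPHB2 followed, except in LPS2, where ASCL2 (1.64 FPKM) lay above both. LGR5 was above EPHB2 in LR1_2, LR3 and LR4 and in LPS1 and LPS2, and below it in LPS3. In the LPS group the ranges of LGR5 (1.26 to 1.59 FPKM) and EPHB2 (0.874 to 1.87 FPKM) overlapped, as did those of ASCL2 and RNF43, so their order there is not beyond the spread. In LPS+LR21 the ranges of OLFM4 (42.7 to 84.9 FPKM) and MUC2 (12.1 to 55.7 FPKM) overlapped, as did those of SOX9 and LGR5. SMOC2 was last in 5 of the 6 libraries; in LPS3, RNF43 and ASCL2 were below it.

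Of the 3 LPS+LR21 libraries, LR1_2 had the highest CPM for 9 of the 10 genes and LR3 the lowest for 8. The epithelial markers were likewise highest in LR1_2 and lowest in LR3: their mean log2 CPM over 17 genes was 7.26, 5.47 and 6.98 in LR1_2, LR3 and LR4, against 4.82, 4.37 and 4.36 in LPS1, LPS2 and LPS3. Their part in the values of the 10 genes was not tested. In bulk RNA, fewer cells of a type and less RNA per cell cannot be told apart.

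Each gene was also set against the epithelial markers of its own library, as its log2 CPM minus their mean. With 3 libraries against 3 the smallest p an exact two-sided permutation test can give is 0.1, so no such difference could pass. LGR5 stood at -1.92 ± 0.61 in LPS+LR21 and -1.61 ± 0.13 in LPS (SD, n = 3 each), a difference of -0.31 (exact permutation p = 0.7, adjusted over the 10 genes 0.778). MUC2 stood at 2.06 ± 0.32 in LPS+LR21 and 2.41 ± 0.22 in LPS, and AGR2 at 2.39 ± 0.67 in LPS+LR21 and 2.23 ± 0.71 in LPS. OLFM4 differed by 0.50, SOX9 by -0.58, MUC2 by -0.34 and AGR2 by 0.17, with groups that overlapped and exact permutation p between 0.3 and 0.7 (adjusted 0.5 to 0.778). On this scale LR1_2 and LR4 had -1.55 and -1.58 for LGR5, inside the LPS range of -1.73 to -1.48, while LR3 had -2.62.

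Relative to the epithelial markers, 7 of the 10 genes had a lower mean in LPS+LR21 and 3 a higher one. The markers themselves had a median log2 fold change of 2.03, so a gene with equal levels in both groups stands lower on this scale. EPHB2 was such a gene, with a mean of 1.43 FPKM in each group. The ratio was not taken over all tested genes, so no background share can be given. EPHB2 was lower in every LPS+LR21 library, at -3.53 ± 0.67 in LPS+LR21 and -1.52 ± 0.56 in LPS, and so was ASCL2, at -5.97 ± 1.46 in LPS+LR21 and -3.11 ± 1.01 in LPS (SD, n = 3 each; exact permutation p = 0.1, adjusted 0.333 for both). ATOH1 was higher in every LPS+LR21 library, by 2.31 (exact permutation p = 0.1, adjusted 0.333), with 0.5 counts added to each count. It had passed the filter on low counts only through LPS+LR21. With 2 counts added the ATOH1 difference was 1.13 and the groups overlapped (exact permutation p = 0.3). RNF43 differed by -1.39. SMOC2 differed by -0.66, a value set by the 0 count in LPS1. With EPCAM, an epithelial adhesion molecule, alone as the yardstick, LGR5 differed by -0.71, RNF43 by -1.80 and MUC2 by -0.75 (LPS+LR21 minus LPS), each lower in all 3 LPS+LR21 libraries (exact permutation p = 0.1), as EPHB2 and ASCL2 again were. EPCAM itself had a fitted log2 fold change of 2.46, above those of LGR5 (1.99), RNF43 (0.72) and MUC2 (1.76). A gene that rose less than EPCAM, or did not rise, stands lower on that yardstick. With EPCAM alone ATOH1 differed by 1.91 with groups that overlapped (exact permutation p = 0.2). AGR2 differed by -0.24, against 0.17 with the 17 markers.

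**Figure D3:**
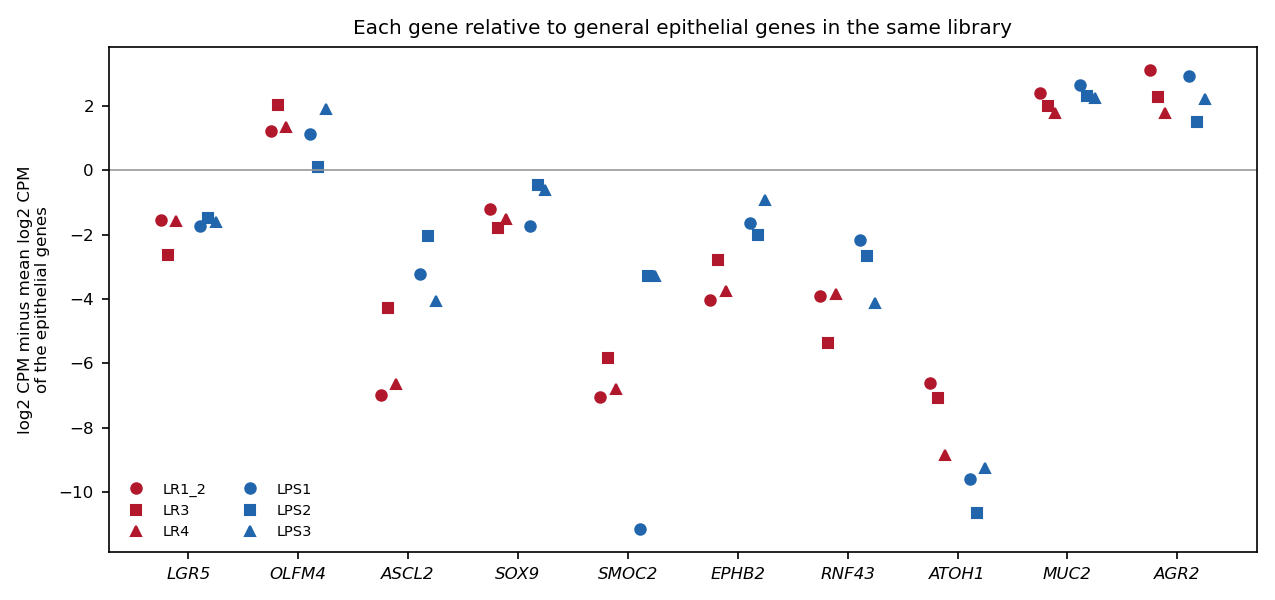
Log2 CPM of each gene minus the mean log2 CPM of 17 epithelial markers in the same library, LPS+LR21 in red and LPS in blue, 1 point per library. With 0.5 counts added, EPHB2 and ASCL2 were lower and ATOH1 was higher in all 3 LPS+LR21 libraries, and the other genes overlapped. With 2 counts added or with EPCAM alone ATOH1 overlapped. With EPCAM alone LGR5, RNF43 and MUC2 did not overlap. The mean of the markers was itself higher in all 3 LPS+LR21 libraries, and so was EPCAM. ATOH1 had passed the filter on low counts only through LPS+LR21.

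Among other crypt genes the telomerase gene TERT rose and the rest did not pass. Of 19 further stem cell and Wnt-linked genes, all in the table and 18 tested, 1 rose, 0 fell and 17 did not pass, with a median log2 fold change of 0.42 against -0.14 over all tested genes. By edgeR's quasi-likelihood test 5 of the 18 were higher and 0 lower at an unadjusted p under 0.05, against background shares of 7.46% and 4.60%. Every LPS+LR21 library was above every LPS library for 6 of the 18, TERT, KCNQ1 and LGR4 among them. The reverse held for 0 of them, and the background shares were 12.3% and 7.1%. TERT encodes the catalytic subunit of telomerase. It had 8.32, 3.92 and 6.13 FPKM in LR1_2, LR3 and LR4, against 1.71, 1.44 and 1.04 FPKM in LPS1, LPS2 and LPS3. Its log2 fold change was 1.99 ± 0.39 (SE), and its adjusted p of 0.0496 by edgeR stood at the threshold. It was 0.0503 with RLE size factors and 0.132 to 0.263 without any 1 library other than LR3 (0.00585 without LR3). In TERT, as in OLFM4, LR3 was the lowest of its group and still above all LPS libraries. KCNQ1, a potassium channel subunit, had 1.95 ± 0.498 FPKM in LPS+LR21 and 0.406 ± 0.0434 FPKM in LPS (SD, n = 3 each; log2 fold change 2.13, adjusted p = 0.0814, edgeR). LGR4, a second R-spondin receptor, had 4.30 ± 2.26 FPKM in LPS+LR21 and 1.22 ± 0.467 FPKM in LPS (log2 fold change 1.64, adjusted p = 0.170, edgeR). The summed level of this list was 1441 to 4028 CPM in LPS+LR21 and 2616 to 3659 CPM in LPS, and it was highest in LR3, where that of the 7 stem genes was lowest of its group. TERT, LGR4 and KCNQ1 supplied only 23.0, 11.9 and 8.22 CPM of the sum in LR3. Other genes of the list set it, so it is not read as a level of crypt stem cells. DESeq2 gave an adjusted p for 14 of these genes and called 4 higher and 0 lower, against 8.34% and 2.82% of all genes. Without LR3, edgeR called 4 of 18 higher and 1 lower, against 4.83% and 3.82%. With all 6 libraries it called 0.974% of all tested genes higher and 0.0819% lower.

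Of 32 further goblet cell genes, 18 were in the table and tested, and 0 passed (edgeR's quasi-likelihood test). At an unadjusted p under 0.05, 2 were higher and 0 lower, against 7.46% and 4.60% of all tested genes. DESeq2 called 0 of 11, against 8.34% higher and 2.82% lower of all genes. The median log2 fold change of the 18 was 0.67. SPDEF, a factor for goblet cell maturation that acts after ATOH1 in the mouse, had 17.0, 1.74 and 4.38 FPKM in LR1_2, LR3 and LR4, against 2.67, 1.302 and 2.01 FPKM in LPS1, LPS2 and LPS3. LR1_2 was the highest library, as for ATOH1 and AGR2, and LR3 lay within the LPS range (log2 fold change 1.82 ± 0.74 SE, adjusted p = 0.346, edgeR). BCAS1 had 6.19 ± 5.04 FPKM in LPS+LR21 and 2.24 ± 0.672 FPKM in LPS, and SYTL2, a vesicle-trafficking protein gene, had 3.27 ± 1.63 FPKM in LPS+LR21 and 1.36 ± 0.158 FPKM in LPS (SD, n = 3 each); neither passed. Without LR3, edgeR called 3 of the 18 higher, which were SPDEF, BCAS1 and SYTL2, against 4.83% of all genes. Without LR1_2 the log2 fold change was 0.38 for SPDEF, 0.44 for BCAS1 and 0.74 for SYTL2.

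None of the tested genes of dividing cells passed. Of 18 proliferation genes, 14 were tested and 0 passed (edgeR's quasi-likelihood test). At an unadjusted p under 0.05, 2 were higher and 1 lower, against 7.46% and 4.60% of all tested genes. DESeq2 called 0 of 14, against 8.34% higher and 2.82% lower of all genes. Of the 14, 7 were fitted above 0 and 7 below, and their summed level was 234 to 287 CPM in LPS+LR21 and 188 to 271 CPM in LPS. CDK1, the mitotic kinase, had 6.03 ± 0.561 FPKM in LPS+LR21 and 3.15 ± 0.945 FPKM in LPS, whereas PCNA, the DNA polymerase clamp, had 13.6 ± 1.53 FPKM in LPS+LR21 and 21.7 ± 2.98 FPKM in LPS (SD, n = 3 each). Neither passed (adjusted p = 0.410 for CDK1 and 0.229 for PCNA by edgeR). TYMS, thymidylate synthase, had 1.35 ± 0.630 FPKM in LPS+LR21 and 0.324 ± 0.257 FPKM in LPS (adjusted p = 0.303, edgeR). Of the 14, 4 were higher in all 3 LPS+LR21 libraries than in any LPS library (TOP2A, CDK1, BIRC5 and TYMS) and 1, PCNA, was lower, against 12.3% and 7.1% of all tested genes; TOP2A and BIRC5 were named after their values were seen.

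Most enterocyte genes rose in the same fit, and 1 macrophage marker fell. Of all tested genes 0.974% rose and 0.0819% fell. The lists were chosen with earlier results of these data known, so their counts beside these shares are no independent result. Of 17 general epithelial genes 3 rose, EPCAM among them, 0 fell and 14 did not pass, with a median log2 fold change of 2.03. Of 18 enterocyte genes 11 rose, 0 fell and 7 did not pass, with a median of 2.88, and SLC15A1, SLC6A19 and MEP1B, genes of brush-border transport and digestion, rose by 2.93, 2.77 and 3.18. The 3 secretory genes had a median of 2.27 and the 7 stem genes one of 0.72, and the difference between the lists was not tested. The secretory median includes ATOH1 (5.13), which passed the filter on low counts only through LPS+LR21. MUC2 and AGR2 had 1.76 and 2.27. Of 17 macrophage genes VSIG4 fell and 16 did not pass, with a median of -1.45; CD14 and MARCO had -1.56 and -1.74. Of 10 fibroblast genes 3 fell (COL1A2, COL3A1 and SPARC), 0 rose and 7 did not pass, with 9 fitted below 0 and 1 above. Their summed level was 113.5 to 125 CPM in LPS+LR21 and 305 to 517 CPM in LPS. At an unadjusted p under 0.05 by edgeR, 15 of 17 epithelial and 18 of 18 enterocyte genes were higher and 0 lower. By that measure 14 of 17 macrophage genes were lower and 0 higher, and of 10 fibroblast genes 4 were lower and 1 higher. The shares of all tested genes were 7.46% higher and 4.60% lower. Of 5 tested enteric glia genes 0 passed (edgeR's quasi-likelihood test), with S100B, ERBB3 and FABP7 at 3.70, 1.73 and -1.29. At an unadjusted p under 0.05, 2 of the 5 were higher and 1 lower, against 7.46% and 4.60% of all tested genes. DESeq2 called 2 of 3 higher and 1 lower, against 8.34% and 2.82% of all genes. The defining glial gene SOX10 was at 0 in LR3 and LPS3, and GFAP was at 0 in every library but LPS3. The edgeR calls of these lists too were lost without any 1 library other than LR3. Without LR3, edgeR called 15 of 17 epithelial and 17 of 18 enterocyte genes higher and 16 of 18 macrophage genes lower. The shares of all genes in that fit were 4.83% higher and 3.82% lower.

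**Figure D4:**
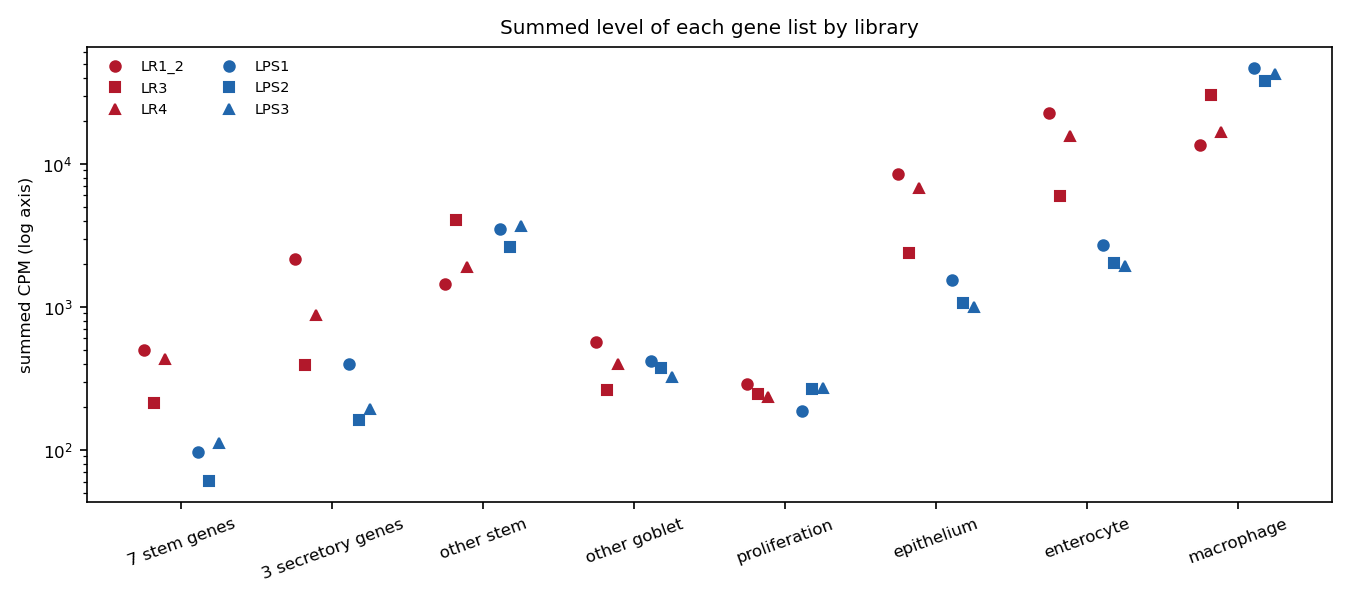
Summed CPM of each gene list in every library on a log axis, LPS+LR21 in red and LPS in blue. The sums of the 7 stem genes, of the epithelial genes and of the enterocyte genes were higher in all 3 LPS+LR21 libraries than in any LPS library. The macrophage sum was lower in all 3. Of the 7 stem genes taken singly, OLFM4 alone separated the groups. For the 3 secretory genes the sum in LR3 lay just under LPS1.

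The sum of the 7 stem genes was 500.1, 211 and 429 CPM in LR1_2, LR3 and LR4, against 96.8, 60.2 and 112 CPM in LPS1, LPS2 and LPS3. OLFM4 supplied 359.7, 181 and 322 CPM of it in LR1_2, LR3 and LR4, against 61.5, 22.2 and 76.8 CPM in LPS1, LPS2 and LPS3. The sum of the 3 secretory genes was 2147, 391 and 874 CPM in LR1_2, LR3 and LR4, against 396, 163 and 193 CPM in LPS1, LPS2 and LPS3. The secretory sum in LR3 was thus within the LPS range while its stem sum, most of it OLFM4, was above it. Of the 7 stem genes taken singly, OLFM4 alone was above every LPS library in LR3.

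The genes most like 2 of the markers were found by the root mean square difference of centred log2 CPM over the 6 libraries, among 8207 genes with a symbol and a mean of at least 1 FPKM. For OLFM4, the most abundant stem gene, they were VSTM5 (0.19), FAM83H (0.19) and ACER1, an alkaline ceramidase gene (0.25). VSTM5 had 4.39, 2.55 and 3.81 FPKM in LR1_2, LR3 and LR4, against 0.810, 0.212 and 1.08 FPKM in LPS1, LPS2 and LPS3, with LPS2 lowest as in OLFM4. For AGR2, the most abundant secretory gene, they were ACTG2, the enteric smooth muscle actin (0.19), AGMAT, agmatinase (0.25), and IFI27L2 (0.29). ACTG2 had 54.1, 7.97 and 13.2 FPKM in LR1_2, LR3 and LR4, against 6.82, 1.87 and 2.62 FPKM in LPS1, LPS2 and LPS3.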

How the data were processed

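Polyadenylated RNA was selected with oligo(dT) beads, per the labels' protocols. Tools listed in the submitters' processing notes, with no roles, are HISAT2 2.0.4, StringTie 1.3.4d, cutadapt 1.9 and edgeR. The authors deposited a count and an FPKM value per gene and library, per the file headers. The genome build and strand handling are not given in the sources used here. Whether each library is a separate bird is not given in the labels; the p-values cover the spread among these libraries, part or all of which may be technical.

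The number in each LPS column name gave its sample. LR1_2, LR3 and LR4 match no single title and were used as 3 replicates of their group, and no source says if LR1_2 pools material. The 3 FPKM columns of that group were not used. FPKM was recomputed for all libraries from counts, column totals and the gene length implied by the deposited LPS columns, for genes with at least 30 counts over the LPS libraries. For 9889 genes with at least 100 counts in each LPS library, 100% of LPS values lay within 5% of the deposited FPKM. The gene lengths came from these same columns, so this agreement was largely built in. The recomputed LPS+LR21 values were not compared with the FPKM columns of that group. Between any 2 libraries, chi-square per degree of freedom was at least 97.1, so none were duplicates.

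edgeR 4.0.16 in R 4.3.3 tested counts with filterByExpr, TMM scaling and the quasi-likelihood F test, with no covariate. P-values are two-sided and adjusted by the Benjamini-Hochberg method over 20745 genes, with a threshold of 0.05. The SE of a log2 fold change was its size over the square root of F. DESeq2 1.42.0 and limma 3.58.1 gave alternatives. Ratios to the epithelial markers used log2 CPM with 0.5 counts added. The 10 genes and the lists were chosen with earlier results of these data known. Named genes are the 10, the 3 of smallest p in each list, and called genes of the further stem and goblet lists. Some genes of the cell type lists are not reported here by name. VSTM5 and the other genes most like a marker were found by the rule given beside them.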

Additional observations from a re-analysis of the deposited data

How the results depend on the processing

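No paired analysis was possible because the numbers in the LPS+LR21 column names are not those of the sample titles. Of the 20745 genes tested, 202 were higher and 17 lower in LPS+LR21. DESeq2 called 1008 higher and 341 lower, and limma-voom with library quality weights, which gave LR3 a weight of 0.334, called 1060 higher and 896 lower. Leaving out 1 library gave 0 to 1086 higher and 0 to 859 lower: 1086 and 859 without LR3, and 0 and 0 by edgeR without each of the other 5, where 1022 to 1506 genes were higher and 621 to 1258 lower at an unadjusted p under 0.05. Of the 10 genes, 0 were called in the main fit, against 0.974% of all tested genes higher and 0.0819% lower. DESeq2 called 5 higher, against 8.34% of all genes. With quality weights 5 were called higher, against 5.11%, and with library totals 1, against 1.45%. Leaving out 1 library gave 0 to 5 called higher. The 5 were called without LR3, against 4.83% of all genes. Library totals moved the median log2 fold change of all genes to 0.02, against -0.14 with TMM. Reversed signs were 1.62 for SMOC2 with quality weights, and 0.04 and 0.11 for EPHB2 without LR3 and without LPS3, in a range of -0.43 to 0.11 when leaving out 1 library. TERT lost its call with RLE size factors and without each library but LR3. The cause was not tested. Relative to the epithelial markers the number of genes with a lower mean stayed within 1.5 times of 7 in the alternatives run. Single ratios changed sign, none past a threshold: AGR2, 0.17 with all libraries, was -0.19 without LR1_2 and without LPS2 and -0.24 with EPCAM alone; LGR5, -0.31, was 0.04 without LR3; and SMOC2, -0.66, was 0.65 without LPS2 and 0.66 without LPS3. DESeq2 called 14 of 16 epithelial genes higher, against 3 of 17 in edgeR, and 17 of 18 enterocyte genes higher, against 11 of 18. It called 8 of 17 macrophage genes lower, against 1 of 17, and 4 of 14 further stem genes higher, against 1 of 18. The shares of all genes were 8.34% higher and 2.82% lower in DESeq2, and 0.974% and 0.0819% in edgeR. Depth limits ATOH1 and SMOC2, which had under 100 counts in every library, and RNF43 and ASCL2, which had under 100 in some.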
